A study of Mus musculus with 80 samples.

Results

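Transsulfuration carries sulfur from homocysteine to cysteine, and a further set of enzymes turns cysteine into taurine, sulfate or sulfide. Described here are the transcripts of 8 genes of these routes in mouse liver: Cbs, Cth, Cdo1, Csad, Mpst, Sqor, Ethe1 and Suox. They were chosen by name, as the rows of the gene count table that carry these symbols, with earlier results of these data known. All 8 had enough counts to be tested, out of 78275 genes listed and 21187 tested.

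The livers came from C57BL/6J mice (genotype labelled C57BL/6), 8 to 12 weeks old, of both sexes, kept on chow under 12 h of light and 12 h of dark and then in constant darkness. Control mice had food throughout, and fasted mice had their food taken away at circadian time (CT) 10. Livers were taken every 4 h from CT8 to CT44, with 2 males and 2 females for each treatment and time, giving 40 control and 40 fasted libraries. The fasted group at CT8 was therefore still fed, and serves as background, while the groups from CT12 to CT44 had gone 2 to 34 h without food. No mouse carried a deletion or a transgene according to the labels. Each library is a piece of the left lobe of 1 mouse, so p-values measure the spread between mice. Because the tissue was whole liver, fewer cells of a type and less RNA per cell cannot be told apart.

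In transsulfuration, cystathionine beta-synthase (Cbs) joins homocysteine to serine, and cystathionine gamma-lyase (Cth) splits the product to release cysteine. Cysteine dioxygenase (Cdo1) commits cysteine to taurine or sulfate, and cysteine sulfinic acid decarboxylase (Csad) takes the branch to taurine. Along another route, mercaptopyruvate sulfurtransferase (Mpst) moves sulfur from a transaminated form of cysteine, and the mitochondrial enzymes sulfide quinone oxidoreductase (Sqor) and persulfide dioxygenase (Ethe1) oxidise hydrogen sulfide, which Cbs and Cth can also make. Sulfite oxidase (Suox), a molybdenum enzyme, turns the sulfite that both routes yield into sulfate. The liver is a main site of all these reactions.

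Total counts per library ranged from 25534901 to 59927771. The titles, used here to assign libraries, disagreed with the detailed labels on treatment for 40 libraries and on sex for 40. The sex markers Xist and Ddx3y went with the title in all 80, and Fgf21, a hormone gene induced by fasting, was higher by 3.95 on the log2 scale in the fasted mice. A pair of libraries stood apart. Control CT8 female 2 had 31.3% of its counts on ribosomal RNA, against a median of 0.101%, and fasted CT40 female 2 held the lowest value of its group for Mpst, Sqor, Ethe1 and Suox. Several results that rest on either are given with and without it.

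Levels between genes were compared as CPM, counts scaled to library size, per kilobase of exon (CPM per kb). The length was that of all exons of a gene in GENCODE M21 (GRCm38), whether used or not, while the submitters' notes name GRCm39. It was 7485 bp for Cbs and 2791 bp for Cth, and the order of the genes depends on such lengths. In CPM alone, the control median of Cbs (427) was above that of Cth (321). In control livers from CT12 to CT44, Cdo1 was the most abundant of the 8, with a median of 682 CPM per kb and a range of 378 to 1128 over 36 mice. Cth followed with a median of 115 CPM per kb. Cbs (57.0), Suox (56.8) and Csad (51.3) lay close together and their ranges overlapped, as did those of Mpst (40.5), Sqor (36.5) and Ethe1 (32.6). In fasted livers, Cdo1 had a median of 1109 CPM per kb and Ethe1, the lowest, 13.7.

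Averaged over CT12 to CT44, fasting raised the mRNA of the cysteine-forming Cth, of Cdo1 and, slightly, of Suox, and lowered that of Mpst, Sqor and Ethe1. Thus 6 of 8 members passed the test, 3 upwards and 3 downwards, where 62.5% of all genes passed, 29.5% upwards and 32.9% downwards. This share is not far from that of all genes. The median of the 8 log2 differences was -0.13, against -0.02 for all genes. Tested jointly over the 9 times, 7 of 8 differed at one time or another (all but Csad), with 61.7% of all genes called. The joint call was lost for Suox without male replicate 1 (adjusted p = 0.433) or 2 (adjusted p = 0.441), and for Cth without male replicate 2 (adjusted p = 0.0524). At CT8, before food removal, 0 of 8 members were called (1.33% of genes), and the 8 log2 differences lay between 0.08 and 0.32, all above 0. Without control CT8 female 2, the values of Ethe1 and Sqor at CT8 were below 0 (-0.05 and -0.01).

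**Figure D1:**
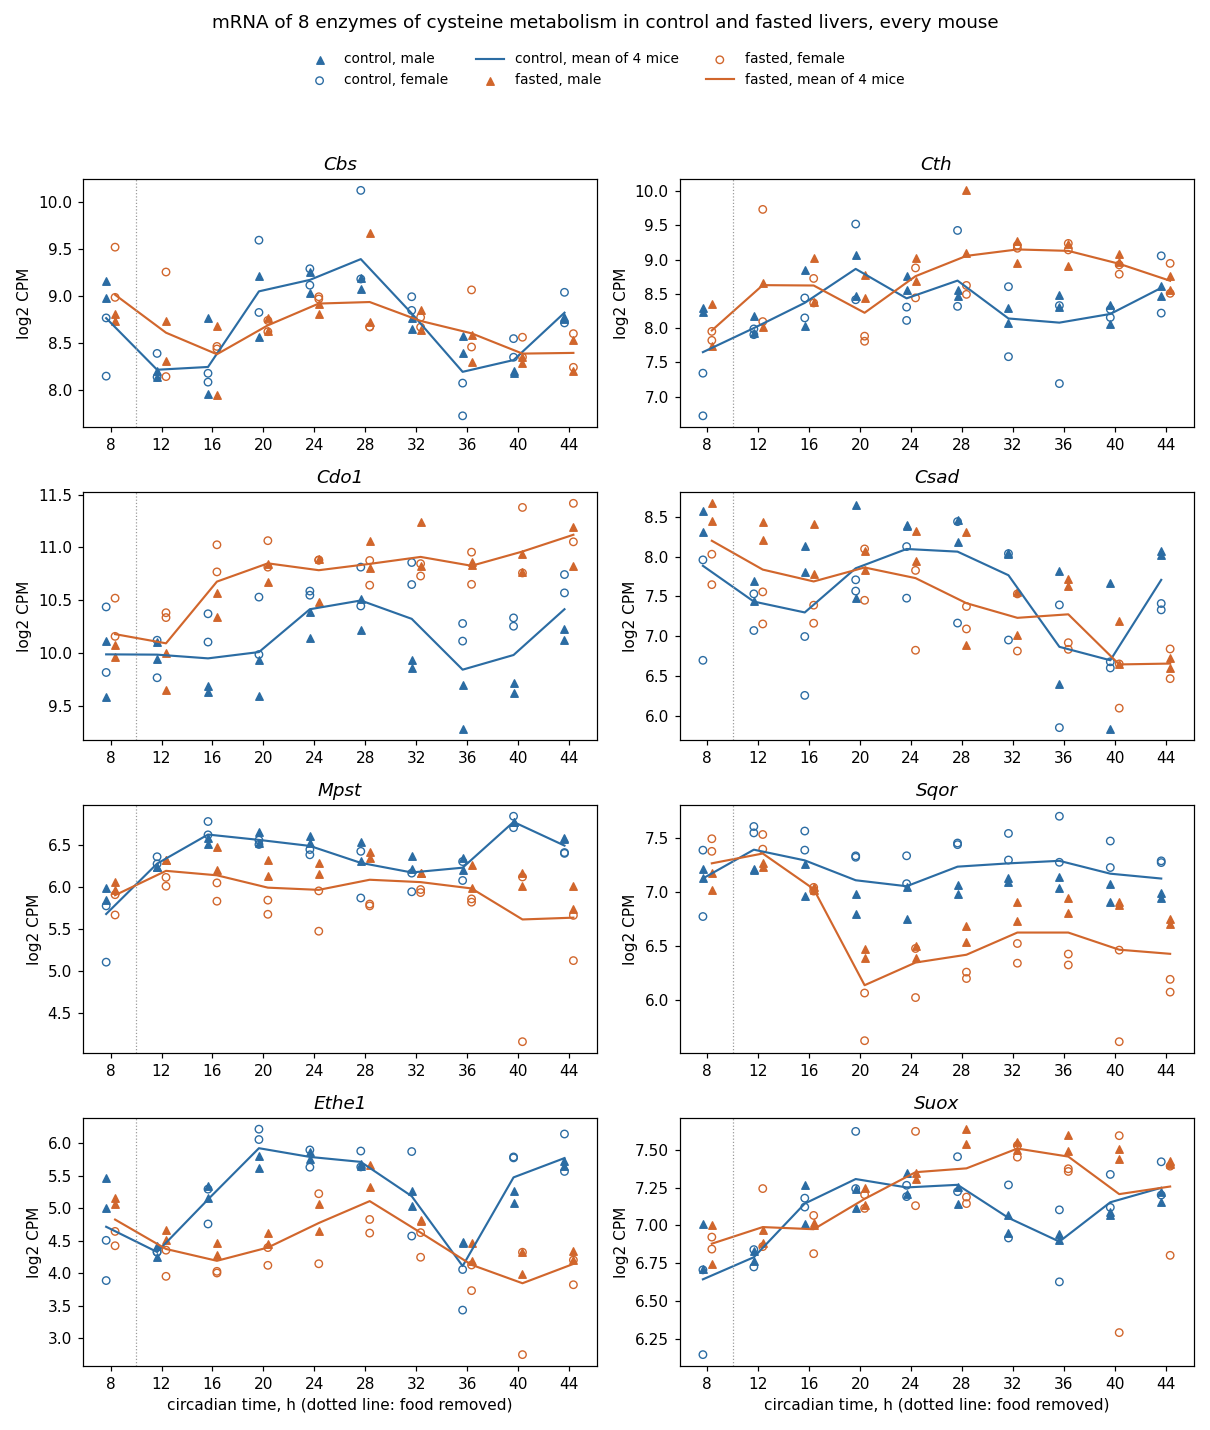
Level of each of the 8 mRNAs (log2 CPM, vertical axis) against circadian time (hours, horizontal axis) in control (blue) and fasted (orange) livers, with every mouse as a symbol (filled triangles males, open circles females) and lines through the means of 4 mice. Fasted Cdo1 means lie above and fasted Sqor and Mpst means below the control means at 9 of 9 times from CT12, while Ethe1 meets the control at its low points, CT12 and CT36.

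Cbs (ENSMUSG00000024039.16), the entry to transsulfuration, did not pass the test in the mean. Over the 36 control livers from CT12 to CT44 its level ran from 211 to 1120.1 CPM with a median of 427 CPM, and over the 36 fasted livers from 246 to 819 with a median of 397. The ranges overlap almost wholly. The mean log2 difference was -0.06 (standard error, SE, 0.07, 95% interval -0.20 to 0.08, adjusted p = 0.471 by edgeR's quasi-likelihood test). At single times from CT12 the difference moved between 0.45 and -0.46, with 0 of 9 called. Without female replicate 1 it was called at CT28 (-0.66) and CT36 (0.65). On the 8 libraries of CT44 alone it was called there (-0.41, adjusted p = 0.0371 by the same test). At CT28 control mice had 587, 539, 581 and 1120.1 CPM and fasted mice 819, 424, 408 and 409 CPM. A single fasted male lay above the lower control values there, and the other 3 fasted mice below all controls. The joint test over the 9 times passed (adjusted p = 0.0259), but in 3 of the 4 fits that leave out one mouse of a sex at every time it did not, with an adjusted p of up to 0.299.

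Cth (ENSMUSG00000028179.13), which yields cysteine, rose by 0.42 in log2 units (SE 0.09, adjusted p = 8.73e-05), or by 33.5%. Control livers from CT12 on had 146 to 734 CPM with a median of 321 CPM, and fasted livers 224 to 1032 CPM with a median of 457 CPM. The difference varied with time, from 0.75 at CT12 (adjusted p = 0.159, called without female replicate 1 at 1.03, adjusted p = 0.0222) to 0.08 at CT44 (adjusted p = 0.845), and the late minus early difference was not called (0.50, adjusted p = 0.0981). At CT36, after 26 h without food, control mice had 318, 359, 322 and 146 CPM and fasted mice 481, 598, 565 and 603 CPM. Every fasted mouse was above every control mouse at this time, and the difference of 1.00 (SE 0.27, adjusted p = 0.00498) was one of 3 calls upwards, with CT32 (0.97) and CT40 (0.73). At CT20 the sign was the other way. Control mice then had 535, 353, 734 and 341 CPM and fasted mice 346, 438, 236 and 224 CPM, a difference of -0.70 (adjusted p = 0.038) with overlapping groups. Each of these 4 calls at single times was lost in at least 1 fit without a replicate, that at CT20 in 3 of them (adjusted p 0.0856 to 0.423). The call in the mean held in all 4 fits, with values of 0.36 to 0.45. Cth shares 2231 bp with Gm43314, a predicted transcript on the same strand, so that reads there could belong to either.

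Cdo1 (ENSMUSG00000033022.9) showed the steadiest rise. Control livers had 622 to 1855 CPM with a median of 1122 CPM, and fasted livers 804 to 2736 CPM with a median of 1823 CPM. The mean log2 difference was 0.63 (SE 0.05, adjusted p = 3.36e-15), or 54.7% more, positive at 9 of 9 times and called at 6 of them. It was first called at CT16, 6 h into the fast, when control mice had 795, 823, 1324 and 1099 CPM and fasted mice 1518, 1298, 2083 and 1744 CPM. A female control overlapped the lowest fasted male. At CT40 control mice had 786, 841, 1220.3 and 1289 CPM and fasted mice 1964, 1744, 1732 and 2664 CPM, a difference of 1.00 (SE 0.15, adjusted p = 5.96e-07) with no overlap. The highest of these values was fasted CT40 female 2, without which the difference was 0.84 (adjusted p = 3.81e-05). On all libraries, only Cdo1 of the 8 was called for a change of the effect with length of fast at matched circadian phase. The mean effect at CT36, CT40 and CT44 exceeded that at CT12, CT16 and CT20 by 0.34 (SE 0.12, adjusted p = 0.0371), where 21.2% of genes were called, 9.91% upwards. That call was lost without fasted CT40 female 2 (0.30, adjusted p = 0.0745) and when a replicate was left out in 3 of 4 cases (adjusted p up to 0.404). Suox gained the call without the same library (0.36) and without female replicate 2 (0.34). Without female replicate 1, Mpst (-0.45), Sqor (-0.34) and Ethe1 (-0.31) gained it, and without female replicate 2 Mpst (-0.29) and Cth (0.80). Sqor was also called without control CT8 female 2 (-0.25). The call is thus not particular to Cdo1 across these fits.

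Csad (ENSMUSG00000023044.3), the taurine branch, did not pass in the mean and was the most variable between mice. Control livers had 57.0 to 402 CPM with a median of 197 CPM, and fasted livers 68.2 to 346 CPM with a median of 166 CPM. The mean log2 difference was -0.19 (SE 0.11, 95% interval -0.42 to 0.03, adjusted p = 0.135). Its single call came at the end of the fast. At CT44 control mice had 260 and 268 CPM (males) and 161 and 170 CPM (females), and fasted mice 105 and 96.5 CPM (males) and 114 and 88.2 CPM (females). All 4 fasted mice lay below all 4 controls, by 1.05 on the log2 scale (log2 difference -1.05, SE 0.34, adjusted p = 0.0132), and the call was lost without male replicate 2 (-1.01, adjusted p = 0.0858) and without female replicate 2 (-0.94, adjusted p = 0.0657). Csad overlaps Zfp740 on the opposite strand by 1476 bp, and whether the counting used the strand is not given in the sources used here.

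Mpst (ENSMUSG00000071711.13), which makes persulfide and hydrogen sulfide from mercaptopyruvate, fell by 0.45 in log2 units (SE 0.06, adjusted p = 6.91e-09), that is to 0.730 of the control level. Control livers had 58.5 to 115 CPM with a median of 86.7 CPM, and fasted livers 17.8 to 89.5 CPM with a median of 64.7 CPM. It lay below control at 9 of 9 times and was called at 5, in 2 stretches, CT16 to CT24 and CT40 to CT44. At CT20 control mice had 92.1, 101, 91.1 and 94.4 CPM and fasted mice 70.2, 79.9, 51.1 and 57.5 CPM. All fasted mice were lower there, the females the lowest (-0.57, SE 0.18, adjusted p = 0.0105). At CT40 control mice had 109.8, 109.8, 105 and 115 CPM and fasted mice 64.7, 71.7, 69.6 and 17.8 CPM, and the difference was -1.005 (SE 0.18, adjusted p = 1.4e-05). The last fasted value is female 2, which stood far below the rest, and without it the difference was -0.66 (adjusted p = 0.000101). Of the 5 calls at single times, 1, that at CT40, held in all 4 fits without a replicate, but it was lost when the 8 libraries of that time were fitted alone (-0.998, adjusted p = 0.0776).

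Sqor (ENSMUSG00000005803.15), the first enzyme of mitochondrial sulfide oxidation, fell by 0.61 in log2 units (SE 0.04, adjusted p = 8e-18), or to 0.656 of control. Control livers had 108 to 208 CPM with a median of 149 CPM, and fasted livers 48.9 to 185 CPM with a median of 92.3 CPM. At CT12 the difference was -0.03 (adjusted p = 0.955), and at CT16 control mice had 153, 125, 167 and 189 CPM against 132, 129, 129 and 132 CPM in fasted mice. The fasted values at CT16 sat within the control range. By CT20, 10 h into the fast, control mice had 127, 111, 161 and 160 CPM and fasted mice 83.9, 88.4, 49.2 and 66.9 CPM. No fasted mouse reached a control mouse, and the difference of -0.97 (SE 0.12, adjusted p = 1.45e-08) was the largest of the course. From CT24 to CT44 it stayed between -0.81 and -0.64. All 7 calls, from CT20 to CT44, held in all 4 fits without a replicate, and at CT40 the value was -0.48 (adjusted p = 0.00136) without fasted CT40 female 2, against -0.68 with it.

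Ethe1 (ENSMUSG00000064254.7), which oxidises the persulfide that Sqor hands on, had the largest fall of the 8. Control livers had 10.8 to 74.4 CPM with a median of 48.4 CPM, and fasted livers 6.67 to 50.7 CPM with a median of 20.4 CPM. The mean log2 difference was -0.86 (SE 0.07, adjusted p = 2.72e-14), leaving 0.549 of the control level. The size depended on the hour. At CT20 control mice had 55.7, 49.3, 74.4 and 66.7 CPM and fasted mice 21.8, 24.5, 21.0 and 17.4 CPM, so that every control mouse was well above every fasted mouse. The difference at CT20 was -1.53 (SE 0.22, adjusted p = 2.96e-07), and those at CT40 and CT44 were -1.52 and -1.64. Without fasted CT40 female 2 that at CT40 was -1.22 (adjusted p = 3.13e-05). At CT12 and CT36, the low points of the control rhythm, the difference was 0.05 and 0.01. At CT36 control mice had 22.1, 22.4, 16.6 and 10.8 CPM and fasted mice 18.3, 22, 13.2 and 17.4 CPM, interleaved. Of its 7 calls downwards, those at CT20, CT40 and CT44 held in all 4 fits without a replicate, and those at CT28 and CT32 were lost when a lower count filter was used (adjusted p 0.0533 and 0.055). Ethe1 overlaps Zfp575 on the opposite strand by 99 bp.

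Suox (ENSMUSG00000049858.9), the last step to sulfate, rose by 0.14 in log2 units (SE 0.05, adjusted p = 0.0128), or by 10.2%. The rise was called in males (0.25, adjusted p = 0.00338) and not in females (0.03, 95% interval -0.11 to 0.18, adjusted p = 0.702), while the difference between the sexes was itself not called (-0.21, adjusted p = 0.163). Control livers had 98.7 to 197 CPM with a median of 142 CPM, and fasted livers 78.2 to 199 CPM with a median of 161 CPM. At CT36 control mice had 123, 119.5, 137 and 98.7 CPM and fasted mice 180, 194, 166 and 164 CPM. The groups did not overlap there, and the difference of 0.55 (SE 0.15, adjusted p = 0.00446) was the larger of 2 calls, the other being CT32 (0.45). In the 4 fits without a replicate the mean rise was 0.12 to 0.15, and it was not called without male replicate 1 (adjusted p = 0.12) or male replicate 2 (adjusted p = 0.232). Without fasted CT40 female 2 it was 0.17 (adjusted p = 0.000203), and CT40 joined the calls (0.39, adjusted p = 0.0169).

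The calls differed from time to time. At CT12 0 of 8 members were called (1.6% of genes). At CT16, 3 were called (Cdo1 up, Mpst and Ethe1 down) with 23.4% of genes, and at CT20, 5 (Cdo1 up, Cth, Mpst, Sqor and Ethe1 down) with 36.6% of genes. The following times held fewer, 3 downwards at CT24 (24.1% of genes, 11.9% downwards) and 2 downwards at CT28 (21% of genes, 11.1% downwards). At CT32, 5 were called (Cth, Cdo1 and Suox up, Sqor and Ethe1 down) with 17.7% of genes, and at CT36, 4 (the same rises, Sqor down) with 26.8%. The last times had 5 each, at CT40 with 39.9% of genes and at CT44 with 39.4%, and at CT44 Cdo1 was the only one called upwards. Cdo1, Mpst and Sqor had 1 sign throughout, whereas Cbs, Cth, Csad, Ethe1 and Suox had both signs among their values. Of the 32 calls at single times from CT12, 16 held in all 4 fits without a replicate, 7 of them Sqor, 5 Cdo1, 3 Ethe1 and 1 Mpst.

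**Figure D2:**
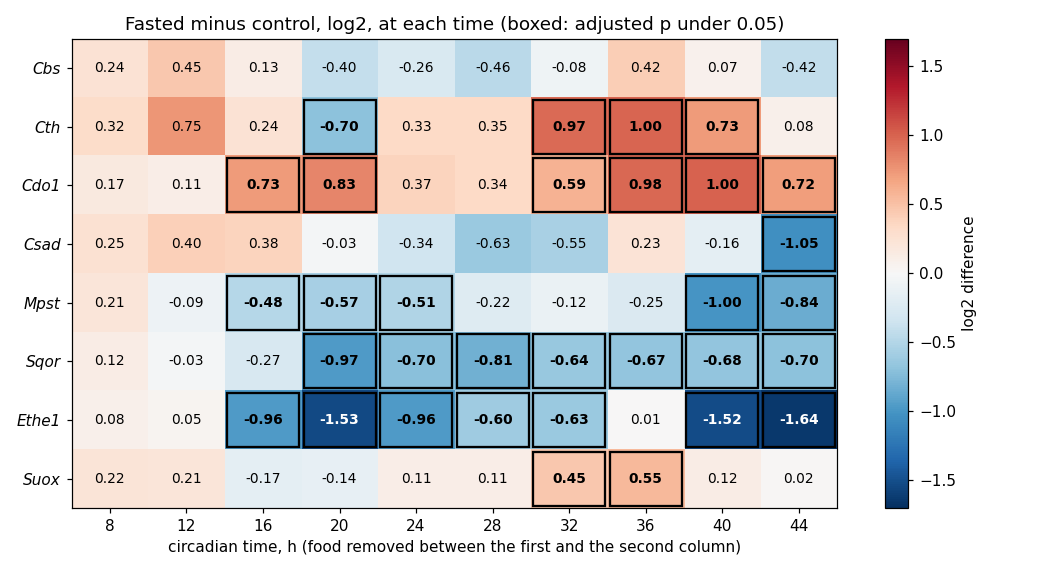
Difference between fasted and control livers (log2, colour and printed value) for each member (rows) at each circadian time in hours (columns), with calls at an adjusted p under 0.05 boxed. The fall of Ethe1 reaches -1.53 at CT20 and -1.64 at CT44 but is near 0 at CT12 and CT36, and the rise of Cdo1 reaches 1.00 at CT40.

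The sexes differed in how far several members moved with fasting. The difference between the female and the male fasting effect, tested as an interaction, was called for 4 of 8 members, all with a lower value in females, where 12.4% of all genes were called and 7.02% with a lower value in females. The clearest was Sqor. It fell by 0.97 in females (log2 difference -0.97, SE 0.06) and by 0.25 in males (log2 difference -0.25, SE 0.06), an interaction of -0.72 (SE 0.08, adjusted p = 9.3e-08).

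The levels of Sqor crossed over between the sexes. Control females, CT8 to CT44, had 109 to 208 CPM with a median of 164 CPM (n = 20), and control males 108 to 153 CPM with a median of 133 CPM (n = 20). Fasted females, CT12 to CT44, had 48.9 to 185 CPM with a median of 80.5 CPM (n = 18), and fasted males 83.7 to 154 CPM with a median of 109 CPM (n = 18). Females were thus above males when fed and below them when fasted. The female minus male difference was 0.32 in control livers (SE 0.05, adjusted p = 3.28e-06) and -0.35 in fasted livers (SE 0.06, adjusted p = 2.24e-06). At CT44, for instance, the control females had 156 and 154 CPM and the control males 123 and 127 CPM, and the fasted females 67.3 and 73.0 CPM and the fasted males 107 and 104 CPM. The interaction stayed between -0.75 and -0.68 in the 4 fits without a replicate, with an adjusted p of at most 0.00659, and was -0.68 without fasted CT40 female 2.

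For Ethe1 and Mpst the fall was also the greater in females. Ethe1 changed by -1.08 in females and -0.64 in males (interaction -0.44, SE 0.15, adjusted p = 0.0386), and Mpst by -0.63 and -0.28 (interaction -0.35, SE 0.12, adjusted p = 0.0476). In control livers neither differed by sex beyond the spread (Ethe1 -0.04, 95% interval -0.24 to 0.15, and Mpst -0.12, 95% interval -0.28 to 0.05), while in fasted livers both were lower in females (Ethe1 -0.37, adjusted p = 0.00355, and Mpst -0.43, adjusted p = 7.63e-05). Fasted females had a median of 57.2 CPM of Mpst against 72.7 CPM in fasted males. The sex differences in fasted livers include fasted CT40 female 2 and were not refitted without it. In control livers Mpst was called by sex in the fit without female replicate 1 (-0.16). These interactions are less firm than that of Sqor. Without male replicate 1 or 2, the adjusted p was 0.331 and 0.413 for Ethe1 and 0.306 and 0.555 for Mpst. Without fasted CT40 female 2 that of Ethe1 was not called (-0.37, adjusted p = 0.0564) and that of Mpst was (-0.27, adjusted p = 0.0182). With the replicate number as a block, the interaction of Mpst was not called (-0.35, adjusted p = 0.052).

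Cdo1 and Csad differed between the sexes in fed livers, in opposite directions. Of the 8 members, 3 were called in control livers, Cdo1 and Sqor higher and Csad lower in females, where 39.2% of genes were called. Control females had a median of 1355 CPM of Cdo1 (870 to 1855, n = 20) and control males 977 CPM (622 to 1463, n = 20), a difference of 0.45 (SE 0.07, adjusted p = 3.24e-07). With fasting both sexes came to similar medians, 1860.4 CPM in females and 1813 CPM in males, and the rise was 0.47 in females and 0.79 in males (interaction -0.33, SE 0.10, adjusted p = 0.0242). This interaction was lost in 3 of the 4 fits without a replicate. It stayed called without fasted CT40 female 2, at -0.36. Csad ran the other way, with a median of 164 CPM in control females and 262 CPM in control males (-0.60, SE 0.15, adjusted p = 0.0014), and the gap remained in fasted mice at 139 against 215 CPM (-0.52, adjusted p = 0.0092). In fasted livers 4 members were called by sex, all lower in females, with 38% of genes called and 19% lower in females. For Cbs, Cth and Suox the interaction was not called, with 95% intervals of -0.33 to 0.23, -0.47 to 0.26 and -0.41 to -0.01. That of Suox was called without female replicate 1 (-0.25) and without female replicate 2 (-0.21). The tests within and between the sexes share their libraries with the mean effect and are not independent of it.

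**Figure D3:**
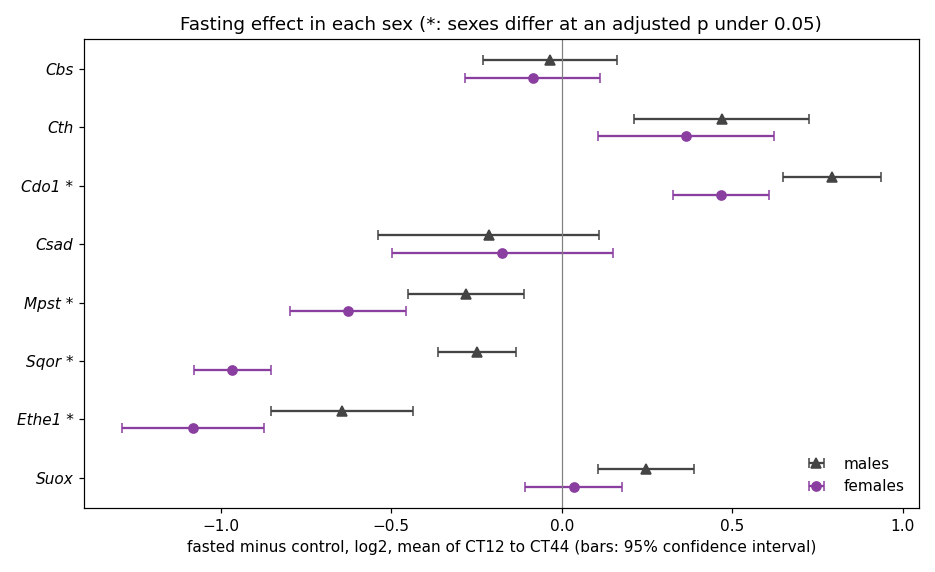
Mean fasting effect from CT12 to CT44 (log2 difference, horizontal axis, with 95% confidence intervals) for each member in males (triangles) and females (circles), with an asterisk where the sexes differ at an adjusted p under 0.05. The intervals for Sqor lie far apart, around -0.25 in males and -0.97 in females, and those for Cbs, Cth and Csad overlap.

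In control livers all 8 members had a 24 h rhythm by the test of a cosine and a sine, where 41.8% of genes did. Ethe1 had the widest, spanning 2.83-fold from trough to peak, with a fitted peak at CT23.3 (adjusted p = 3.44e-07). Its control means were 20.1 ± 0.97 CPM at CT12 and 18.0 ± 5.48 CPM at CT36, and 61.5 ± 11.2 CPM at CT20 and 55.3 ± 10.5 CPM at CT44 (SD, n = 4 each). The low point thus came back after 24 h. Sampling ended at CT44, so the high phase of the second cycle was not fully covered. Cbs followed, with 1.26 in log2 from trough to peak and its fitted peak at CT1.72, from 298 ± 25.6 CPM at CT12 to 707 ± 276 CPM at CT28 (SD, n = 4 each). Csad (1.14, peak at CT2.37), Cdo1 (0.59, CT1.81), Cth (0.79, CT22.7) and Suox (0.49, CT22.4) also peaked around the end of the subjective night, taking CT24 as its end.

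Mpst and Sqor peaked elsewhere. Mpst had its fitted peak at CT19.0 (0.63, adjusted p = 2.66e-06), with 99.1 ± 7.88 CPM at CT16 and 109.8 ± 4.24 CPM at CT40 as its high groups (SD, n = 4 each). Sqor had the narrowest rhythm, 0.24 with a peak at CT11.6 (adjusted p = 0.02), and its call was lost in 3 of the 4 fits with a replicate left out (adjusted p up to 0.168) and in females alone (adjusted p = 0.374). In females alone 5 of the 8 were called, without Cdo1 (adjusted p = 0.088), Cth (adjusted p = 0.0703) and Sqor, and in males alone 7, without Csad (1.08, adjusted p = 0.0611), each from 20 libraries. Without control CT8 female 2 all 8 rhythms were called, with values of 0.25 to 1.47.

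Fitted rhythms in fasted livers differed from these for several members. In the 36 fasted livers from CT12 on, with a straight-line trend allowed for, 5 of 8 members were rhythmic, where 47.1% of genes were. Each circadian time there also stands for a length of fast. A response to fasting that is not a straight line can enter the fitted peaks and peak-to-trough differences. Its part was not tested for any member. The control peaks and peak-to-trough differences set beside them are from the fit on CT8 to CT44 without a trend. The difference between the fasted and the control rhythm was tested in a further fit, on CT12 to CT44 with a trend for each treatment. That difference was itself called for 6 of 8, where 23.2% of genes were called. Ethe1 had a fitted rhythm of 1.02 with a peak at CT3.59, some hours after its control peak at CT23.3 (difference between the rhythms, adjusted p = 5.65e-05). Its highest fasted group was CT28, with 50.7, 40.2, 28.4 and 24.5 CPM, the males above the females, where the highest control group was CT20. Cth had peaks at CT22.7 in control and CT7.76 in fasted livers, with like peak-to-trough differences of 0.79 and 0.70 (adjusted p = 0.00134 for the difference between the rhythms), and Suox peaks at CT22.4 and CT5.21 (adjusted p = 0.00509). The difference for Suox was lost without male replicate 1 (adjusted p = 0.0548) and male replicate 2 (adjusted p = 0.0541). The fasted rhythm of Suox was lost on dropping a replicate in 3 of 4 cases (adjusted p 0.0985 to 0.214) and with a lower count filter (adjusted p = 0.0667), that of Cth without male replicate 2 (adjusted p = 0.0599) and that of Cbs without male replicate 1 (adjusted p = 0.141).

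Cbs peaked at CT1.72 in control and CT4.06 in fasted livers, and its peak-to-trough difference was 1.26 and 0.57 (adjusted p = 0.00314 for the difference between the rhythms, lost without female replicate 2 at 0.118). The fasted means of Cbs lay between 335.8 ± 28.9 CPM at CT40 and 515 ± 203 CPM at CT28 (SD, n = 4 each). For Mpst a fasted rhythm was not detected (0.25, adjusted p = 0.238) and the rhythms differed (adjusted p = 0.00149). Sqor had a wider fitted rhythm in fasted than in control livers, 0.70 against 0.24 (adjusted p = 0.0465 for the difference). Its highest fasted group was CT12, with 164 ± 15.9 CPM, and its lowest CT20, with 72.1 ± 17.8 CPM (SD, n = 4 each), so the fall early in the fast lies within the fitted cycle, and its part in the fit was not tested. The difference for Sqor was lost on leaving out a replicate in 3 of 4 cases (adjusted p up to 0.303) and with the replicate block (adjusted p = 0.0511). For Cdo1 and Csad a fasted rhythm was not detected (adjusted p = 0.104 and 0.339), nor was a difference from the control rhythm (adjusted p = 0.068 and 0.0776).

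**Figure D4:**
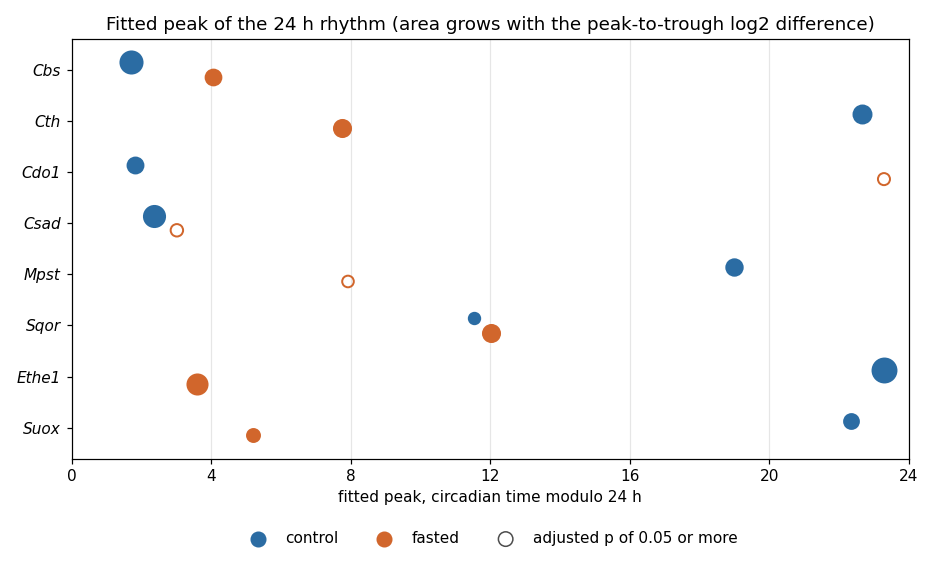
Fitted peak of the 24 h rhythm (circadian time modulo 24 h, horizontal axis) of each member in control (blue) and fasted (orange) livers, with the area of the symbol growing with the peak-to-trough log2 difference and open symbols where the rhythm was not called. Control Ethe1, Cth and Suox sit at CT22.4 to CT23.3 and their fasted symbols at CT3.59 to CT7.76, while Sqor stays near CT12 in both. Control fits used CT8 to CT44 without a trend, and fasted fits CT12 to CT44 with a straight-line trend.

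Counts on exon bins, the pieces into which a gene's exons are cut for counting, were compared for their share within each gene. The bins are numbered without positions. Tested per gene, usage of the bins changed with fasting in 4 of 8 members, Mpst, Cbs, Ethe1 and Sqor, where 17.2% of genes were called. In Mpst (adjusted p = 0.000158 by edgeR's diffSpliceDGE) 5 of 12 bins passed, all among its first 6 (2.58% of all bins passed). Bins 1 and 2 lost share (log2 usage change -0.74 and -1.18), bins 4 and 5 gained (0.35 and 0.40) and bin 6 lost (-0.23). These are small parts of the gene. Bin 6 had 4.09% ± 0.57 of the gene's counts in control and 3.43% ± 0.65 in fasted livers, bin 5 0.77% ± 0.17 and 1.02% ± 0.26 (SD, n = 36 each), and bins 1 and 2 averaged 20.6 and 16.8 counts per control library. Bins 7 to 10, which hold most of the counts, did not pass. The call for Mpst held in all 4 fits without a replicate (adjusted p at most 0.0127).

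In Ethe1 the last of its 8 bins gained share, from 13.2% ± 1.53 in control to 16% ± 2.35 in fasted livers (SD, n = 36 each; log2 usage change 0.28, gene adjusted p = 0.00707). The control values ran from 10.8% to 17.6% with a median of 13.1%, and the fasted values from 11.5% to 20.5% with a median of 15.3%, so the groups overlapped. That call was lost without male replicate 1 (adjusted p = 0.333) and male replicate 2 (adjusted p = 0.222). In Cbs (adjusted p = 0.000811) bins 32 and 34 gained, bin 34 from 0.692% ± 0.12 to 0.838% ± 0.13 (SD, n = 36 each), and without male replicate 2 the adjusted p was 0.0525. Sqor was at the edge (adjusted p = 0.048), on bins of 42.3 and 5.17 counts per control library, and was lost in all 4 fits without a replicate. By limma's diffSplice 2 of the 8 members were called, without Cbs (adjusted p = 0.14) and Sqor (adjusted p = 0.494). For Cth, Cdo1 and Suox the adjusted p was 1, and for Csad it was 0.0949, although 1 of its 54 tested bins passed on its own, bin 42, which averaged 4.89 counts per control library and 2.42 per fasted library (log2 usage change -0.99, adjusted p = 0.0184). Of the 80 exon columns, 3, all from fasted CT40, matched another library of their group better than their own, and without CT40 the call of Sqor was lost (adjusted p = 0.0653).

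**Figure D5:**
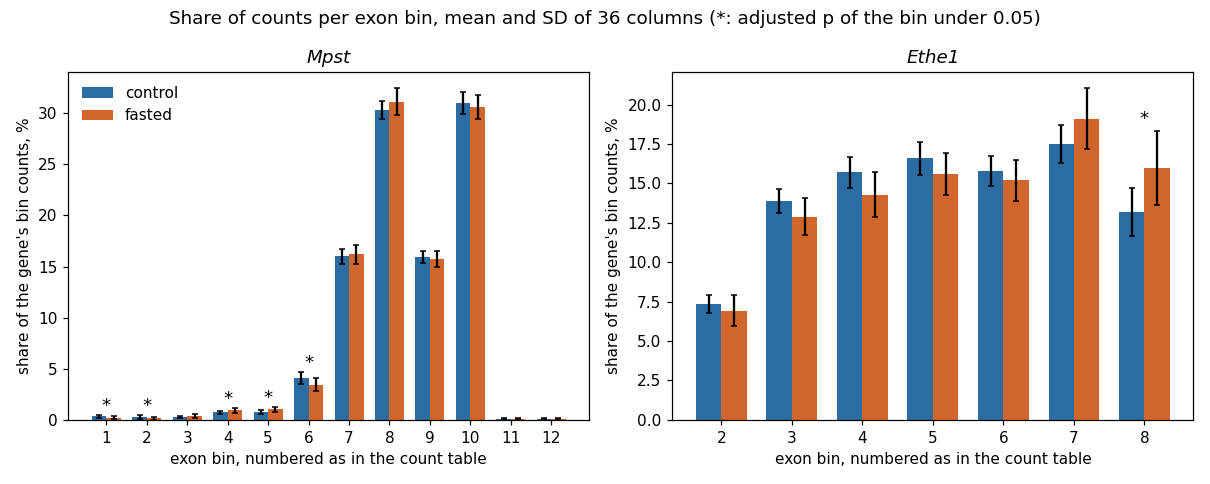
Share of each gene's exon counts that fall on each bin (percent, vertical axis, mean with SD over 36 columns) against the bin number for Mpst and Ethe1 in control (blue) and fasted (orange) livers from CT12 to CT44, with asterisks where the bin passed the test. The starred bins of Mpst are all among the first 6 and hold at most 4.09% in control livers, while bin 8 of Ethe1 moves from 13.2% to 16%.

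By GENCODE M21, which annotates GRCm38, Cbs lies on chromosome 17 (31608894 to 31637238, minus strand), Cth on chromosome 3 (157894248 to 157925077, minus), Csad on chromosome 15 (102176999 to 102204724, minus), Sqor on chromosome 2 (122765237 to 122809569, plus), Ethe1 on chromosome 7 (24587543 to 24608925, plus) and Suox on chromosome 10 (128669894 to 128674073, minus). Mpst, on chromosome 15 (78406416 to 78414013, plus), lies 508 bp from Tst, the gene of the related sulfurtransferase rhodanese, on the opposite strand. Tst fell by 0.44 on the log2 scale (log2 difference -0.44, adjusted p = 1.4e-16), close to the value of Mpst (-0.45). Of all genes, 32.9% fell, and shared control of the neighbours was not tested. Cth lies 142 bp from 1810013D15Rik, on the opposite strand, and Suox 578 bp from Gm49782, on the same strand. Values of these other neighbours are not given here. The gene count table itself holds no positions, and the submitters' processing notes name GRCm39.

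RefSeq promoters (GRCm38.p6, 250 bases before to 50 after a start, 5′ to 3′ on the gene's strand) were used for 6 members. These were Cbs, Csad, Mpst, Sqor, Ethe1 and Suox, with 10 entries, and no promoter of Cth or Cdo1 was searched. The entries were searched on both strands for letters bound by clock, nutrient and stress factors. The E-box CACGTG, bound by the clock proteins CLOCK and BMAL1, occurred in 1 of the 6 members, Cbs, at position -229 relative to the start, and in 7.15% of 32851 promoters. The antioxidant response element TGACNNNGC, bound by NRF2, occurred in 1, in the second of 3 starts of Mpst, and in 12.4% of promoters. The D-box TTATGTAA (0.938% of promoters), the nuclear receptor half-site AGGTCA (16.3%), the amino acid response letters TGATGNAAT (0.965%) and the FOXO site TGTTTAC (3.65%) were in none of these windows. Members are counted by gene, with a match at any of their starts, while the shares are of single promoter entries. A match is a description of letters, not of binding. Shown are the 2 members with a match, in capitals, and Ethe1, which had the widest control rhythm and the largest fall and no match.
Cbs, chr17:31637156-31637455, minus strand: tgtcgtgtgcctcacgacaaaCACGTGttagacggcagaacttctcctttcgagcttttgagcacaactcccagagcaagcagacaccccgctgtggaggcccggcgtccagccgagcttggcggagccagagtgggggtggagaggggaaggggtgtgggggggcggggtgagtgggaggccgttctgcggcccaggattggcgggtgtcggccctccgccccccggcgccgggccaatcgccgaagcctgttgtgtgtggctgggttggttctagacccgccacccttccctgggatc
Mpst, second start, chr15:78406551-78406850, plus strand: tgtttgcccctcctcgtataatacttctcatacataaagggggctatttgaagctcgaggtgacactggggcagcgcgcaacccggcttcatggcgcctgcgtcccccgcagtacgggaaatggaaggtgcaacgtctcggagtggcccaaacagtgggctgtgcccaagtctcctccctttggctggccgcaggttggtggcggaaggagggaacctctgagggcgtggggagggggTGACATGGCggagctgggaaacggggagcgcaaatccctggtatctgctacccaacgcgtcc
Ethe1, first start, chr7:24587293-24587592, plus strand: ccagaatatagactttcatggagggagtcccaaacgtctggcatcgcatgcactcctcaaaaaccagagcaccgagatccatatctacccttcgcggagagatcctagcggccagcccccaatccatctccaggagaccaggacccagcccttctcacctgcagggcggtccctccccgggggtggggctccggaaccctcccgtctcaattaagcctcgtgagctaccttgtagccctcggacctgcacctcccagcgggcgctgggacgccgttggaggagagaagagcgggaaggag

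The neighbours of the 8 genes in sulfur metabolism were taken from lists and counted in the mean fasting effect, for which the share of all genes is given above. Upstream, among 10 genes that supply or remethylate homocysteine, 6 rose and 1 fell. The largest rise was Mat1a, which makes S-adenosylmethionine in hepatocytes (1.56, adjusted p = 6.94e-27), and the fall was Mtr, methionine synthase (-0.23, adjusted p = 7.78e-10). Of 8 genes of glutathione synthesis and turnover, 4 rose and 4 fell, from Chac1, which degrades glutathione (1.07), to its relative Chac2 (-0.67). Of 4 taurine genes tested, 2 fell and 2 did not pass, the larger fall being Slc6a6, the taurine transporter (-0.78, adjusted p = 4.91e-18).

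Of 6 genes that handle sulfide and sulfane sulfur outside the 8 members, 4 fell, 1 rose and 1 did not pass. The largest fall was that of Tstd1, a thiosulfate sulfurtransferase (-0.69, adjusted p = 3.7e-11), and the rise that of Lyrm4, a part of the iron-sulfur cluster machinery (0.18). The molybdenum cofactor and sulfate list, to which Suox is linked by its cofactor, had 1 rise and 4 falls among 7. Mocs1, of the first step of cofactor synthesis, rose (0.24), and Papss1, which activates sulfate, had the largest fall (-1.16, adjusted p = 7.5e-24). Pdxk, the kinase that makes the vitamin B6 cofactor used by Cbs, Cth and Csad, fell (-0.60, adjusted p = 2.18e-12). Among 7 genes of other cysteine use, 5 rose and 1 fell. Got1, the cytosolic aspartate aminotransferase, which can also transaminate cysteine, rose most (1.72, adjusted p = 2.87e-16), and Cars1, cysteinyl-tRNA synthetase, fell (-0.67).

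Of all genes with a mean log2 CPM of at least 1, those most like each member in their 20 means of treatment and time were named by Pearson's r, as a description over means that share libraries and depth. Sqor was matched by Akr1c14 (r = 0.981) and Aldh4a1 (0.978), Cdo1 by Pigl (0.958) and Ccni (0.955), and Ethe1 by Gm71041 (0.952). Cbs was matched by Ccdc12 (0.933) and Zfp707 (0.885), Mpst by Slc35b4 and Pnpla6 (0.929 each), Suox by Pex5 (0.902) and Naprt (0.894), and Csad by 9530068E07Rik (0.815) and Mfsd14b (0.803). Cth was closest to Abat (0.887) and then to Suox (0.869), the only member among these likes. Between members, r was lowest for Cdo1 with Sqor (-0.861) and highest, after Cth with Suox, for Cbs with Csad (0.733).

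The tissue label was checked by markers. The 5 hepatocyte markers (Alb, Ttr, Apoa1, Cps1, Hnf4a) summed to 57590 to 110500 CPM in control and 71110 to 126600 CPM in fasted livers, and 4 of them rose with fasting and 1 fell. Markers of other cells were called as well. Of all genes, 62.5% were called in this mean fasting effect, 29.5% upwards and 32.9% downwards. All 5 Kupffer cell markers fell, with sums of 182 to 541 CPM in control and 118 to 390.3 CPM in fasted livers, as did 4 of 5 cholangiocyte markers (24.6 to 66.0 and 6.78 to 50.3 CPM), 3 of 5 stellate cell markers (178 to 334 and 160 to 336 CPM, with 1 rise) and 3 of 5 lymphocyte markers (9.74 to 46.2 and 8.16 to 26.6 CPM). Endothelial markers had 2 rises and 2 falls among 5 (215 to 316 and 216 to 348 CPM). No list had a sum at 0 in any library, and the part of cell composition in the changes of the 8 members was not tested.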

How the data were processed

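Liver polyadenylated RNA of 80 mice was sequenced from both ends. The authors deposited raw counts per gene and raw counts per exon bin, not normalized (the submitters' notes name Trimmomatic, HISAT2, DESeq2 and GRCm39 without versions). A table of normalized values deposited beside them was not used. Libraries were grouped by title. Members and gene lists were chosen with earlier results of these data known, and the genes named from a list are those with its largest called rise and fall. For each member the 2 genes with the highest r are named, other than any gene not reported here.

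Counts were filtered with filterByExpr, scaled by TMM and tested with edgeR 4.0.16 (quasi-likelihood, R 4.3.3) on group means of treatment, time and sex. Rhythms were fitted as a 24 h cosine and sine, with sex. Exon usage was tested with edgeR's glmFit and diffSpliceDGE, with fasted CT40 as 1 group, since 3 of its columns match another library. Rows without an exon name (8.28% to 25.9% of a column) were left out. P-values were adjusted by Benjamini-Hochberg over all genes and called under 0.05. CPM are TMM-scaled, and log2 CPM has a prior count of 2. The fits of group means, rhythms and exon usage were tested on simulated data. Total counts set the precision, and members had 181 to 108894 counts per library. No pair of replicates was a duplicate (lowest median chi-square 1.78, against 0.455 from counting noise). Same-numbered control and fasted mice did not deviate together (correlation -0.06 to 0.25 over 20 pairs), so the replicate number was not used in the main tests. Alternatives were DESeq2 1.42.0 and its size factors, limma 3.58.1 for exons, other filters and thresholds, single sexes or times, a replicate block and leaving out replicates or libraries.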

Additional observations from a re-analysis of the deposited data

Results flagged for a closer look

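Single mice that stood apart from the other 3 of their treatment and time were found in 8 of 160 groups of 4, the number that chance gives at 1 in 20 (8). In log2 CPM, Cbs was 10.1 in control CT28 female 2 (others 9.07 to 9.20) and 9.68 in fasted CT28 male 1 (others 8.67 to 8.73). Cth was 7.19 in control CT36 female 2 (others 8.31 to 8.49), Cdo1 10.5 in fasted CT24 male 2 (others 10.9) and Csad 6.95 in control CT32 female 2 (others 8.03 to 8.04). Mpst was 4.16 (others 6.02 to 6.17) and Suox 6.29 (others 7.44 to 7.59) in the same library, fasted CT40 female 2. Suox was also low in fasted CT44 female 1, at 6.80 (others 7.39 to 7.43).

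The female minus male difference in the fasting effect was -0.33 for Cdo1, -0.35 for Mpst, -0.72 for Sqor and -0.44 for Ethe1, each called by the interaction in edgeR's quasi-likelihood test. The late minus early effect of Cdo1 was 0.34. The difference between the fasted and the control rhythm was taken as its own peak-to-trough value in log2. It was 0.86 for Cbs, 1.25 for Cth, 0.71 for Mpst, 0.47 for Sqor, 1.35 for Ethe1 and 0.54 for Suox. Without fasted CT40 female 2, those of Mpst, Sqor and Suox were 0.65, 0.52 and 0.52, all still called.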

How the results depend on the processing

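Of 1520 values of single members refitted or called anew under the alternatives, 1361 had the same call and, where signed, the same direction. Rhythm, joint and exon usage values have no sign and were compared by call alone. Peak times were not compared. Of the rest, 102 lost and 29 gained a call, and 28 changed sign. Among those that changed sign, 1 had a call, Suox at CT40, which was -0.31 without female replicate 1. The others had no call on either side. In the fits without a replicate, at single times, Ethe1 ran from -0.051 to 0.15 (CT12), from -0.23 to 0.27 (CT36) and from -0.10 to 0.31 (CT8), Csad from -0.21 to 0.25 (CT20), -0.77 to 0.054 (CT24), -0.085 to 0.74 (CT36) and -0.37 to 0.28 (CT40), Suox from -0.0041 to 0.21 (CT24), -0.31 to 0.45 (CT40) and -0.088 to 0.10 (CT44), Cth from -0.21 to 0.42 (CT44), Cdo1 from -0.061 to 0.43 and Sqor from -0.037 to 0.32 (CT8). Late minus early, Cbs ran from -0.13 to 0.0501. By sex, control Cbs ran from -0.022 to 0.079 and Suox from -0.014 to 0.063, and the interaction of Cbs from -0.14 to 0.033, of Csad from -0.15 to 0.25 and of Cth from -0.18 to 0.0090. With genes kept at a summed count of 10, Suox at CT44 was -0.00032, and without control CT8 female 2, Ethe1 at CT8 was -0.047 and Sqor -0.0080. The cause of these changes was not tested.

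A minimum change of 1.5 times left 3 members and 4359 genes in the mean fasting effect, and a minimum ratio of 1.5 from trough to peak 3595 genes with a control rhythm. Females alone gave 4692 genes and 5 members with a control rhythm and males alone 5104 genes, each from fewer libraries. With genes kept at a summed count of 10, 1 member was called at CT28, 0 late minus early and 2 for the sex interaction. On the 8 libraries of the time alone, 5113 genes were called at CT40 and 0 at CT8, and without control CT8 female 2, 11 genes at CT8 and 2 members late minus early. Exon usage gave 984 genes with at least 10 counts per bin, and 2 members by limma's diffSplice.

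Leaving out each replicate, which removes 20 libraries and so lowers the power, gave these ranges for members and genes: at CT8 0 to 3 members and 0 to 2123 genes, at CT12 0 to 1 and 5 to 545, at CT16 1 to 4 and 2112 to 4739, at CT20 3 to 5 and 4784 to 7145, at CT24 1 to 3 and 2001 to 4789, at CT28 1 to 3 and 1807 to 4074, at CT32 1 to 5 and 1198 to 3095, at CT36 2 to 5 and 2546 to 5229, at CT40 4 to 6 and 5072 to 8618, and at CT44 3 to 5 and 4545 to 7906. The joint test gave 4 to 8 members and 8485 to 12000 genes, late minus early 0 to 4 and 1449 to 4095, the sex interaction 1 to 5 and 238 to 2473, control rhythms 7 to 8 and 6464 to 7311, fasted rhythms 3 to 5 and 6697 to 7853, their difference 4 to 6 and 2636 to 3601, and exon usage 1 to 3 and 1371 to 1914. With the replicate block, the mean fasting effect gave 13189 genes and 6 members, the sex interaction 3 members and the rhythm difference 5, the losses being Mpst and Sqor, and exon usage without CT40 gave 3 members, Sqor being lost without CT40 whether the block was used (adjusted p = 0.0637) or not. The block changed no other call of a member. Leaving out fasted CT40 female 2 was chosen after the data had been seen. Depth is no main limit for the members, the lowest count being 181 (Ethe1).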
